A study of Mus musculus with 9 samples.

Results

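The transcriptome of resting wild-type RAW264.7 macrophages was described from 3 RNA sequencing libraries, which are the samples of the series whose genotype label is CEBPD wild type, 3 of 9 samples in all. The other 6 libraries come from edited cells of the same line and were not analysed here. RAW264.7 is an established macrophage line of a male mouse, transformed by Abelson leukaemia virus. The cells (TIB-71; ATCC) grew in IMDM medium with fetal calf serum and antibiotics and received no stimulus. For its lipopolysaccharide experiments the paper used individual wild-type clones, and it does not say whether these libraries come from clones. Total RNA was depleted of ribosomal RNA rather than selected for poly(A) tails, and single reads of 50 bases were made. The libraries are named WT replicates 1, 2 and 3 after their donor labels. Nothing in the labels says whether they came from separate cultures, so the spread between them may be technical. They also represent 1 line grown in 1 medium, not macrophages of an animal.

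Macrophages are phagocytes that take up and digest particles, sense microbes through pattern recognition receptors and signal to other cells with cytokines and chemokines. Their survival depends on signalling through the CSF-1 receptor, and their gene programme rests on the transcription factor PU.1 together with C/EBP and IRF family members. A resting macrophage keeps receptors and lysosomal enzymes at hand, whereas many inflammatory genes are transcribed only after a stimulus such as lipopolysaccharide.

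The 3 libraries held 19649318, 16847638 and 16113306 counts on genes. Levels are given as counts and as CPM, which are counts scaled to a common library size with TMM. Most comparisons between genes use TPM, in which counts are divided by the length of a gene's exons before scaling. Ranks and shares by CPM or counts are not corrected for length. A gene was taken as detected when each library held more than 3 counts, a floor that lies at 0.154 to 0.186 CPM. This floor covers counting error only. Of 55487 gene identifiers, 15213 were detected (27.42%), 31576 had no count in any library, and 12388 reached 1 CPM in every library. Among 21974 protein-coding genes, 11241 were detected (51.16%) and 8122 had no count at all.

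The marker genes of macrophages were detected in each library, at ranks by mean CPM from 3 for Spp1 through 59 for Lyz2 and 119 for Cd68 to 329 for Csf1r. Spp1, the secreted glycoprotein osteopontin (ENSMUSG00000029304, GRCm38 chromosome 5 from 104435118 to 104441050), had 142249, 127915 and 117900 counts in WT replicates 1, 2 and 3. Its level was 14534 ± 551 TPM (SD, n = 3), the highest of all protein-coding genes with exon lengths taken over all transcripts of a gene. Lyz2, the lysozyme of phagocytes (ENSMUSG00000069516, chromosome 10 from 117277331 to 117282321), had 23747, 21064 and 18143 counts and 2945 ± 171 TPM. Cd68, a heavily glycosylated protein of late endosomes (ENSMUSG00000018774, chromosome 11 from 69664213 to 69666153), had 15361, 12595 and 11631 counts and 1936 ± 63.95 TPM. Csf1r, which encodes the receptor for CSF-1 and IL-34 (ENSMUSG00000024621), had 7912, 6646 and 6384 counts and 223 ± 0.854 TPM. The order Spp1, Lyz2, Cd68, Csf1r held in each library, and the TPM ranges of these genes did not overlap. Per length, Spp1 stood 4.94-fold above Lyz2 and 65.0-fold above Csf1r (mean ratios of TPM over 3 libraries, SD 0.218 and 2.24), and it exceeded Actb, the cytoskeletal actin that is often the most abundant message of a cell, by 1.60-fold (SD 0.0812). These folds depend on the length used. With the mean length of a gene's transcripts Spp1 stood 7.66-fold above Lyz2 and 35.7-fold above Csf1r, and its ratio to Actb was 0.811, so that the order of Spp1 and Actb turned.

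The stretches of 150 bases upstream of the annotated starts of 3 of these markers and of Tnf, which had the highest level after Mif in the list of cytokines other than chemokines, are shown to give the sequence context of genes that these unstimulated cells transcribe at a high level. They come from the RefSeq promoter table of GRCm38.p6 and are written 5′ to 3′ on the strand of the gene. Capitals mark matches on either strand to TATAAA (the TATA box), CCAAT (the CCAAT box, which NF-Y binds), GGAAGT (a core of ETS factors, the family of PU.1) and TGACTCA (the site of AP-1).
Spp1: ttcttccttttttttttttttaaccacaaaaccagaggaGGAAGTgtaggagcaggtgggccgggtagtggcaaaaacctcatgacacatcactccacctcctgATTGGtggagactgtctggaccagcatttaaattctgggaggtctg
Lyz2: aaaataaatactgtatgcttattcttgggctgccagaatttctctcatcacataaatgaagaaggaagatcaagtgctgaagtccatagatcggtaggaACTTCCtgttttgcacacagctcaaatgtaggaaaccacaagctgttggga
Cd68: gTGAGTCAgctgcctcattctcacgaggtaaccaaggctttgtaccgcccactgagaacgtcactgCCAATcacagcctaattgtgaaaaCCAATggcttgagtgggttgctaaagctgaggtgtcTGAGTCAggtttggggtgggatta
Tnf: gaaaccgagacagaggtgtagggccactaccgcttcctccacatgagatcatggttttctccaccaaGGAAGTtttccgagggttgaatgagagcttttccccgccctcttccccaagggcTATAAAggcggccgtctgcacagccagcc
These are chr5:104434961-104435110 (plus strand), chr10:117282322-117282471, chr11:69666171-69666320 and chr17:35202008-35202157 (minus strand), and that of Lyz2 ends 49 bases short of its RefSeq start. GGAAGT begins 111 bases before the RefSeq start in Spp1, 100 in Lyz2, where it is on the opposite strand, and 83 in Tnf, and was not found in the Cd68 stretch. CCAAT is on the opposite strand of Spp1 and occurs 2 times in Cd68, between 2 copies of TGACTCA that read on the opposite strand. Among these 4 stretches only that of Tnf holds TATAAA, 29 bases before its start. Of the 27025 promoters in the table, each over 150 bases, 8.08% hold TATAAA, 25.29% CCAAT, 13.9% GGAAGT and 2.80% TGACTCA, and no 2 matches in the printed stretches overlapped.

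Macrophage identity genes were detected almost throughout. Of 34 such genes, 31 were detected (91.18%, against 51.16% of protein-coding genes) with a median of 232 TPM. Their CPM differed little between libraries (median coefficient of variation 3.62% over the 28 genes with at least 10 CPM). This list, like those below, was chosen with earlier results of these data known, so the shares describe the lists and test nothing. After Spp1 and Lyz2 came Ctss, the cathepsin of antigen processing, with 17279, 14451 and 13971 counts and 2073 ± 1.86 TPM. Cd14, the coreceptor for lipopolysaccharide, had 18489, 15520 and 14567 counts and 1727 ± 27.6 TPM. The signalling adaptors Tyrobp and Fcer1g, which pair with activating receptors, had 864 ± 48.3 and 740 ± 24.2 TPM. None of these 4 genes overlapped with its neighbour in the order of the list.

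Several defining surface genes were detected at a much lower level. Adgre1, which encodes the F4/80 antigen, had 437, 397 and 329 counts and 22.1 ± 1.72 TPM. Itgam, the CD11b chain of complement receptor 3, had 711, 582 and 560 counts and 22.7 ± 0.300 TPM, but 66.3% of its distinct stretches of 50 bases, the read length, also occur in transcripts of another gene. Ptprc, the common leukocyte antigen CD45, stood at 38.4 ± 2.37 TPM. The Fc receptor genes spanned from 50.6 ± 1.07 TPM for the high-affinity receptor Fcgr1 to 6.21 ± 0.473 TPM for Fcgr4. In bulk RNA, fewer cells that express a gene and less RNA per cell cannot be told apart, which applies to each intermediate level given here. Clec7a, the beta-glucan receptor Dectin-1, had 2, 3 and 1 counts. Axl and Mertk, receptors for the uptake of dying cells, had 4, 3 and 1 counts and 2, 0 and 0 counts.

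**Figure D1:**
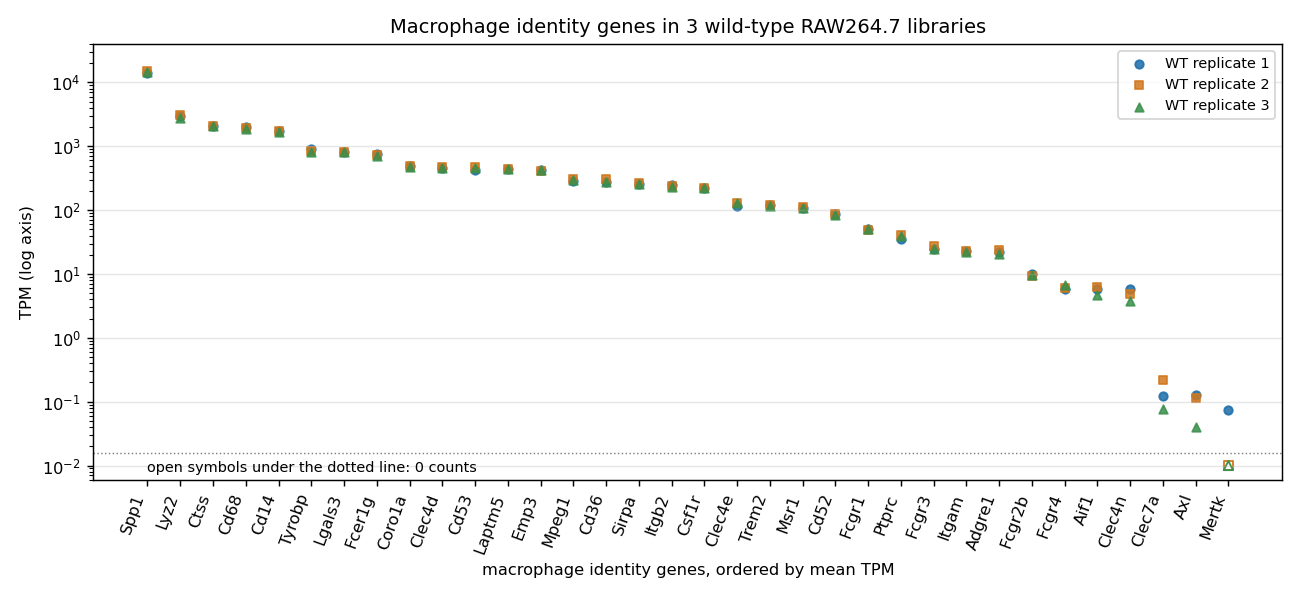
Levels of 34 macrophage identity genes, ordered by mean TPM on the horizontal axis, with TPM on a log axis and 1 point per wild-type library. The points of the 3 libraries nearly coincide for most genes, from 14534 TPM for Spp1 down to single counts for Clec7a, Axl and Mertk.

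Genes of tissue-resident macrophages and of monocyte subsets were mostly at 0. Only 6 of 22 were detected (27.27%, against 51.16% of protein-coding genes). No count in any library, a state that 36.96% of protein-coding genes share, was found for 14. Among these 14 were Vsig4, Cd163, Marco, Timd4, Clec4f and Lyve1, which mark resident macrophages of liver, spleen, peritoneum or vessel walls. Mrc1, the mannose receptor, had 1, 2 and 1 counts. Cx3cr1, the fractalkine receptor, was the highest of the list with 501, 415 and 447 counts and 18.7 ± 1.14 TPM. Itgax, which encodes CD11c, and Cd5l, a secreted lipid regulator of resident macrophages, followed at 10.5 ± 0.827 and 9.49 ± 0.935 TPM, and their ranges overlapped. Siglec1, a sialic acid receptor of resident macrophages, had 2.35 ± 0.167 TPM. Ccr2, the receptor of inflammatory monocytes, had 48, 50 and 42 counts.

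Counts were spread over many genes. The 10 most abundant genes took 5.51% ± 0.236 of all counts (SD, n = 3) and the 100 most abundant 18.4% ± 0.153, while 999 genes were needed to reach 50% and 5348 to reach 90%. Protein-coding genes took 95.5% ± 0.312. Genes of the mitochondrial genome took 1.64% ± 0.127, cytosolic ribosomal proteins 1.98% ± 0.0371, the 67 genes of replication-dependent histones, whose messages lack poly(A) tails, 0.647% ± 0.0376, lincRNAs 1.15% ± 0.102 and short RNAs 0.837% ± 0.0757. Reads that aligned to several places are not part of these shares, which can be too low for classes with similar copies. Of 13 mitochondrial messages, 7 have over 20% of their 50-base stretches shared with another gene.

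By CPM the 15 leading genes mixed structural RNAs with messages for the cytoskeleton, chaperones, glycolysis and lysosomes. Malat1, a nuclear long non-coding RNA, was first with 148245, 139109 and 150584 counts, and by CPM it was lowest in WT replicate 1 and highest in WT replicate 3. Actb had 152287, 123712 and 120014 counts (7515 CPM on average) and Spp1 stood at 7383 CPM. Next came Rn7sk, the 7SK RNA that restrains transcription elongation, the ribosomal RNA fragment CT010467.1 and mt-Co1, a subunit of cytochrome oxidase. Ncl (nucleolin), mt-Cytb, the endoplasmic reticulum chaperones Hsp90b1 and Hspa5, the glycolytic enzyme Pkm, the cytosolic chaperone Hsp90ab1 and the poly(A)-binding protein Pabpc1 were at 2920 to 4119 CPM. So were 2 genes of the macrophage lysosome, Gpnmb (3156 CPM), a membrane glycoprotein of phagocytes, and Ctsb (3146 CPM), the most highly counted cathepsin.

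Ranking by TPM favoured short genes, and 8 of the 15 genes were shared with the ranking by CPM. Rn7sk led with 64491 ± 5373 TPM, followed by Gm23935, an annotated miRNA of 57 bases at 31554 ± 3006 TPM, all of whose 50-base stretches occur in another gene as well. The small RNA Bc1 stood at 8830 ± 539 TPM, and Rn7s2, an RNA of the signal recognition particle with all stretches shared, at 1137 ± 67.6 TPM. Protein-coding genes that entered only on this scale were Ccl3, Ftl1 (the light chain of ferritin, 3774 ± 134 TPM), and the complex I subunits mt-Nd1, mt-Nd2 and mt-Nd5. Grouped by function after their values were seen, the 100 genes highest by CPM held 11 genes of the actin cytoskeleton, 7 endoplasmic reticulum chaperones, 7 translation factors, 6 mitochondrial genes, 5 glycolytic enzymes, 4 cytosolic ribosomal protein genes, 4 non-coding RNAs and 4 genes of the lysosome list.

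**Figure D2:**
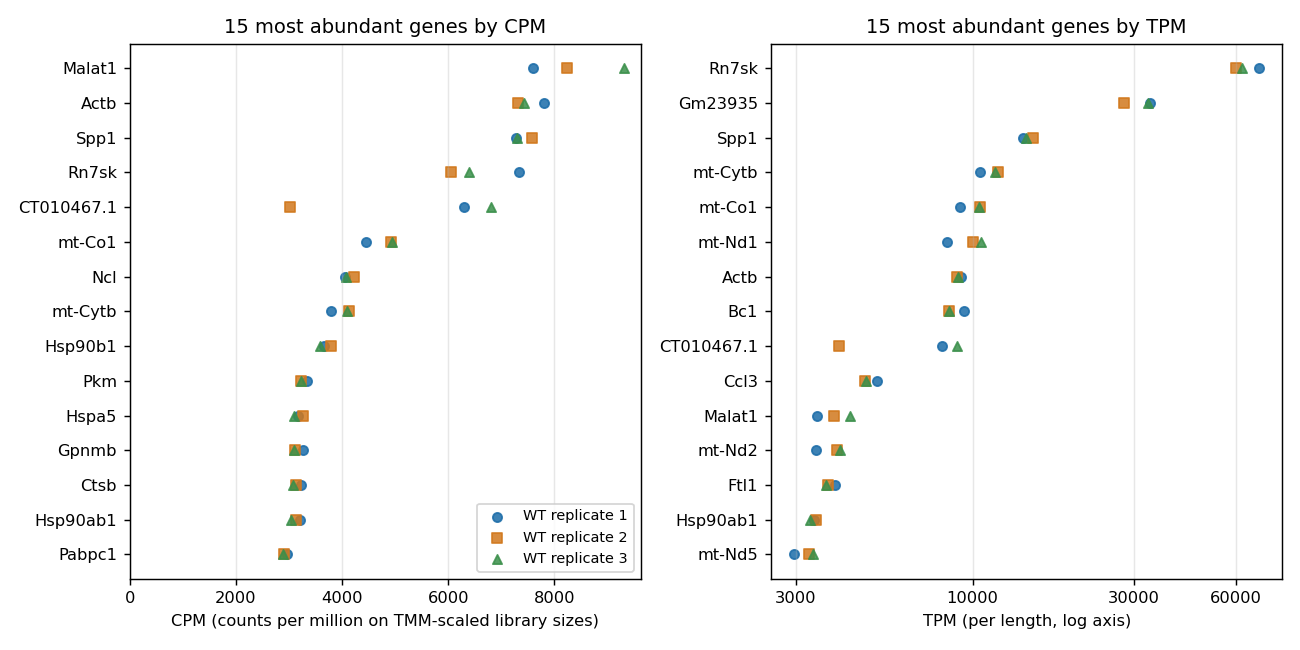
The 15 most abundant genes by CPM (left, linear axis) and by TPM (right, log axis), with 1 point per wild-type library. The libraries lie close together except for CT010467.1, a ribosomal RNA gene at 3020 CPM in WT replicate 2 against 6293 and 6801 CPM in the others.

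Of 47 transcription factors of the myeloid lineage and its neighbours, 39 were detected (82.98%, against 51.16% of protein-coding genes) with a median of 8.69 TPM. Nfe2l2, the NRF2 factor of the oxidative stress response, led with 154 ± 4.69 TPM. Spi1, which encodes PU.1, had 2437, 1931 and 1953 counts and 144 ± 4.04 TPM, and its range overlapped with that of Cebpz, a nucleolar protein of the C/EBP name (144 ± 6.03 TPM). Cebpb, a C/EBP factor of inflammatory gene expression, had 1150, 891 and 893 counts and 120 ± 4.48 TPM, with no overlap to either neighbour. Irf5, which acts downstream of Toll-like receptors, stood at 98.9 ± 3.37 TPM, and Irf8, a factor of monocyte development, at 20.4 ± 0.0720 TPM.

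The other C/EBP genes lay lower. Cebpg reached 28.8 ± 0.922 TPM and Cebpe, a factor of granule genes, 22.4 ± 1.48 TPM. Cebpd, the gene whose product the study is about, had 6.30, 7.46 and 6.25 CPM and 5.78 ± 0.676 TPM, and Cebpa, the factor of myeloid commitment, had 42, 65 and 54 counts and 3.84 ± 1.13 TPM. Per length, Cebpb stood 20.97-fold above Cebpd (SD 2.98) and 33.7-fold above Cebpa (SD 12.6), and with the mean transcript length the first of these ratios was 11.7. Among factors at or under the floor were Maf, Batf3 and Gata1 with no count, and Pparg, the factor of lipid metabolism and of alveolar macrophages, with 0, 0 and 1 counts. Egr1, an early response gene, had only 1, 3 and 6 counts.

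Cytokine genes ranged from 847 TPM to no count. Of 52 interleukins and other cytokines, 22 were detected (42.31%, against 51.16% of protein-coding genes) and 25 were at or under the floor, 16 of them with no count, a state that 36.96% of protein-coding genes share. Mif, the macrophage migration inhibitory factor, had 4075, 3202 and 2999 counts and 847 ± 40.2 TPM, and 50.9% of its 50-base stretches are shared with other genes. Tnf, the early inflammatory cytokine of macrophages (ENSMUSG00000024401, chromosome 17 from 35199381 to 35202007), had 3749, 3028 and 2899 counts and 363 ± 8.28 TPM. The anti-inflammatory Tgfb1 followed at 154 ± 3.84 TPM, Tnfsf9 (the 4-1BB ligand) at 52.3 ± 1.97 TPM and Vegfa, the endothelial growth factor, at 42.1 ± 0.806 TPM. No neighbours in this order overlapped.

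Interleukins that mark an activated macrophage were at or near 0. Il1b had 2, 0 and 2 counts and Il1a 2 counts in each library, whereas Il1rn, the antagonist of their receptor, had 243, 190 and 179 counts and 6.79 ± 0.324 TPM. Il6, Il10, Il12a and Il12b had no count in any library, nor had the growth factors Csf2 and Hgf. Il18, whose product needs cleavage by caspase-1, was detected at 15.02 ± 0.298 TPM. Ebi3, a subunit of IL-27 and IL-35, was detected at 18.6 ± 0.494 TPM, while Il27, the partner chain, had 2, 3 and 0 counts. Csf1, the ligand of Csf1r, had 15, 16 and 11 counts and 0.491 ± 0.089 TPM. Il34, the other ligand of Csf1r, had 9, 5 and 11 counts and 0.792 ± 0.319 TPM, against 223 TPM for the receptor. Ifnb1, the type I interferon of activated macrophages, had 1, 0 and 0 counts.

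Chemokines reached the highest levels among these signalling genes. Ccl3, an attractant of monocytes and T cells (MIP-1α, ENSMUSG00000000982, chromosome 11 from 83647844 to 83649355), had 24458, 18905 and 18387 counts and 4949 ± 215 TPM. Ccl4, its neighbour in function (MIP-1β), had 5774, 4494 and 4410 counts and 1366 ± 51.1 TPM, and Ccl9, a chemokine of myeloid cells and osteoclasts, had 22672, 19772 and 17982 counts and 1223 ± 39.0 TPM. By TPM, Ccl3 stood 3.62-fold above Ccl4 (SD 0.0287) and 13.6-fold above Tnf (SD 0.304). Both Ccl3 and Ccl4 had the highest CPM in WT replicate 1, and the coefficient of variation of Ccl3 was 6.19%.

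Below these 3 genes the levels dropped steeply. Ccl2, the main attractant of monocytes, had 763, 584 and 533 counts and 101.2 ± 7.43 TPM, and Cxcl2, an attractant of neutrophils, had 133, 129 and 100 counts and 10.8 ± 1.24 TPM. Ccl5 and the interferon-induced Cxcl10 had 15, 21 and 6 counts and 14, 13 and 10 counts. In all, 12 of 33 chemokine genes were detected (36.36%, against 51.16% of protein-coding genes). The 16 with no count, a state that 36.96% of protein-coding genes share, included Ccl1, Ccl20, Ccl24, Ccl19, Ccl11 and Ccl8. Cxcl1 and Cxcl9, which activated macrophages make, and Ccl17, a chemokine of alternative activation, also had no count.

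**Figure D3:**
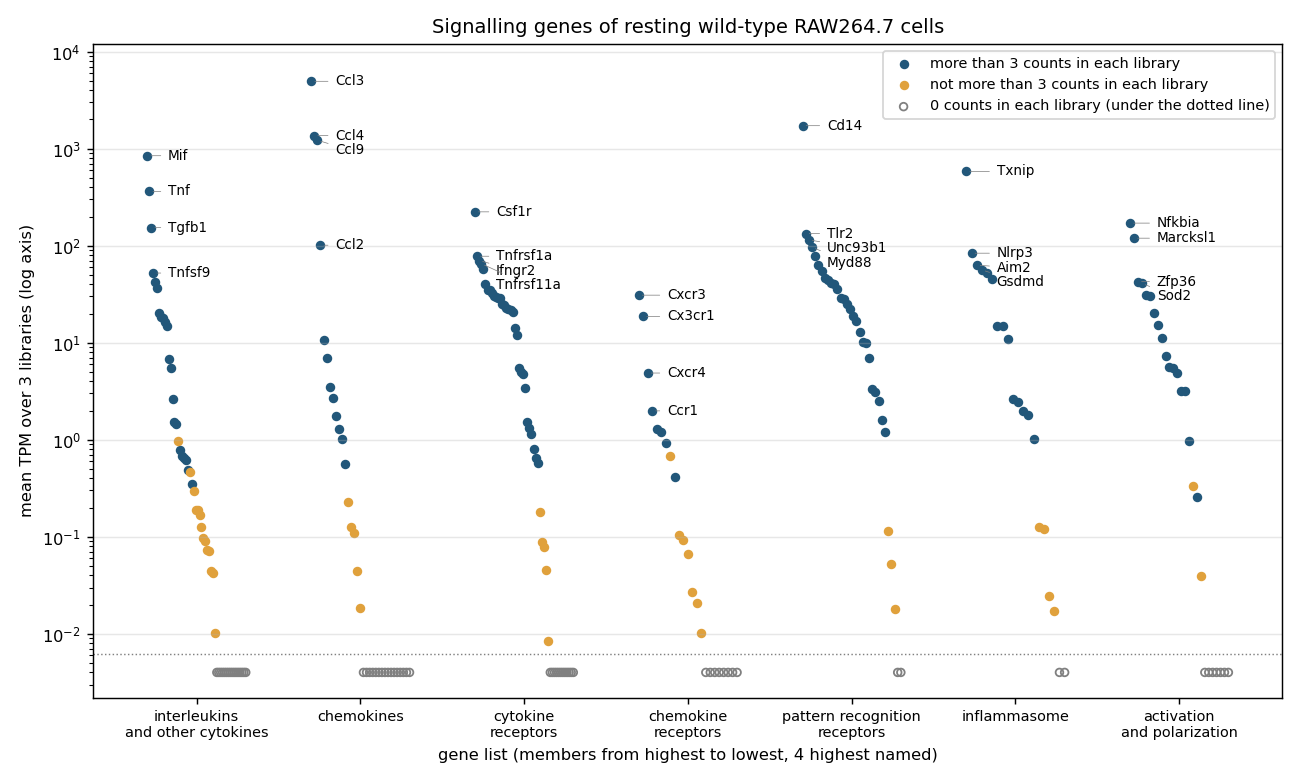
Mean TPM over 3 wild-type libraries (log axis) of the members of 7 signalling lists, ordered from high to low within each list, with genes of 0 counts drawn under the dotted line. Chemokines reach the highest, from Ccl3 at 4949 TPM to 16 genes without a count, whereas most pattern recognition receptors lie above 1 TPM.

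Of 48 genes of cytokine receptors, 31 were detected (64.58%, against 51.16% of protein-coding genes). After Csf1r came Tnfrsf1a, the main receptor of TNF, with 1217, 1031 and 1024 counts and 77.9 ± 1.62 TPM. Tnfrsf1b, the other receptor of TNF, stood at 24.3 ± 2.55 TPM. Ifngr2, a chain of the interferon-γ receptor, had 70.4 ± 3.90 TPM, Tnfrsf11a (RANK, the receptor for the osteoclast differentiation factor) 65.3 ± 2.35 TPM, Il17ra 57.3 ± 0.614 TPM and the type I interferon receptor chains Ifnar1 and Ifnar2 40.7 ± 1.82 and 32.7 ± 0.496 TPM. Il1rl1, the IL-33 receptor ST2, had 1203, 1170 and 1001 counts and 30.3 ± 2.49 TPM, while its ligand gene Il33 had no count.

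The chains of some receptors were at very unequal levels. Csf2rb, the signalling chain of the GM-CSF receptor, had 1127, 924 and 903 counts and 24.99 ± 0.227 TPM, whereas Csf2ra, the chain that binds GM-CSF, was detected with only 5, 14 and 7 counts. Il18rap, the accessory chain of the IL-18 receptor, stood at 14.1 ± 1.07 TPM, while Il18r1, the binding chain, had 2, 0 and 4 counts. Il1rap was at 5.43 ± 0.487 TPM, while Il1r1, the IL-1 receptor, had 1, 0 and 0 counts and the decoy Il1r2 none. Il6st and Il6ra, both chains of the IL-6 receptor, were detected at 35.2 ± 1.36 and 29.2 ± 0.840 TPM. Il10rb and Il10ra, the chains of the IL-10 receptor, were at 21.7 ± 2.17 and 5.02 ± 0.804 TPM. No count was found for Il5ra, Il3ra, Il2ra, Lifr, Osmr, Flt3 or Kit.

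Chemokine receptors were detected in a minority of cases. Of 23 genes, 8 were detected (34.78%, against 51.16% of protein-coding genes). Another 8 had no count, a state that 36.96% of protein-coding genes share. Cxcr3, better known from T cells as the receptor of Cxcl9 and Cxcl10, was the highest with 329, 270 and 270 counts and 30.9 ± 0.513 TPM, and its range did not overlap with that of Cx3cr1. Cxcr4 had 64, 48 and 33 counts and 4.87 ± 1.07 TPM, and Ccr1, a receptor of Ccl3 and Ccl9, had 39, 24 and 29 counts and 1.99 ± 0.302 TPM.

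Pattern recognition receptors and their adaptors were detected in 27 of 32 genes (84.38%, against 51.16% of protein-coding genes) with a median of 20.5 TPM. Tlr2, which senses bacterial lipoproteins, had 2313, 2185 and 2003 counts and 133 ± 8.23 TPM. Tlr7, a sensor of single-stranded RNA, stood at 78.7 ± 4.13 TPM and Tlr13, a mouse sensor of bacterial ribosomal RNA, at 44.3 ± 1.30 TPM. Tlr4, the lipopolysaccharide receptor, had 1243, 1261 and 1188 counts and 41.3 ± 4.23 TPM, 42.2-fold below its coreceptor Cd14 per length (SD 4.80) and 18.6-fold with the mean transcript length. Ly96, the MD-2 subunit that Tlr4 needs to bind lipopolysaccharide, was detected with 124, 119 and 125 counts. Unc93b1, the chaperone of endosomal receptors, and the adaptor Myd88 had 115 ± 6.94 and 96.3 ± 1.02 TPM. Cytosolic DNA sensing was represented by Cgas at 55.5 ± 1.60 TPM and by its adaptor Tmem173 (STING) at 46.2 ± 1.70 TPM. Tlr3, the RNA sensors Ddx58 (RIG-I) and Ifih1 (MDA5), and Nod2 lay between 1.22 and 3.35 TPM. Tlr5, Tlr8, Tlr11 and Tlr12 were at or under the floor, with at most 2 counts in any library.

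Inflammasome genes were detected in 14 of 20 cases (70%, against 51.16% of protein-coding genes). Nlrp3, the sensor of membrane damage, had 2019, 1829 and 1657 counts and 83.7 ± 3.66 TPM, Aim2, a sensor of cytosolic DNA, 63.1 ± 2.06 TPM, the pore-forming Gsdmd 56.3 ± 1.71 TPM and Casp1 52.6 ± 2.16 TPM. Txnip, which binds Nlrp3 and also controls glucose uptake, had 582.1 ± 8.005 TPM. Pycard, the adaptor ASC that joins Nlrp3 to caspase-1, had 0, 1 and 0 counts. Nlrp6 and Mefv had no count, and Nlrp12 had 1 count in each library.

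Among 26 genes of activation and polarization 17 were detected (65.38%, against 51.16% of protein-coding genes). The inhibitor of NF-κB Nfkbia led with 1685, 1385 and 1397 counts and 171 ± 3.62 TPM, followed by Marcksl1 (120 ± 2.87 TPM), Zfp36, which degrades cytokine messages (42.6 ± 0.664 TPM), and Sod2 (40.9 ± 1.19 TPM). Ptgs2, the inducible cyclooxygenase, had 421, 361 and 356 counts and 15.3 ± 0.353 TPM. Acod1, which makes itaconate, had 167, 148 and 157 counts and 11.1 ± 0.859 TPM. The costimulatory Cd80 and Cd86 stood at 30.9 ± 1.14 and 5.59 ± 0.444 TPM and Cd40 at 0.971 ± 0.191 TPM. Nos2, the inducible nitric oxide synthase of classical activation, and Arg1, Retnla and Chil3 of alternative activation had no count in any library.

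**Figure D4:**
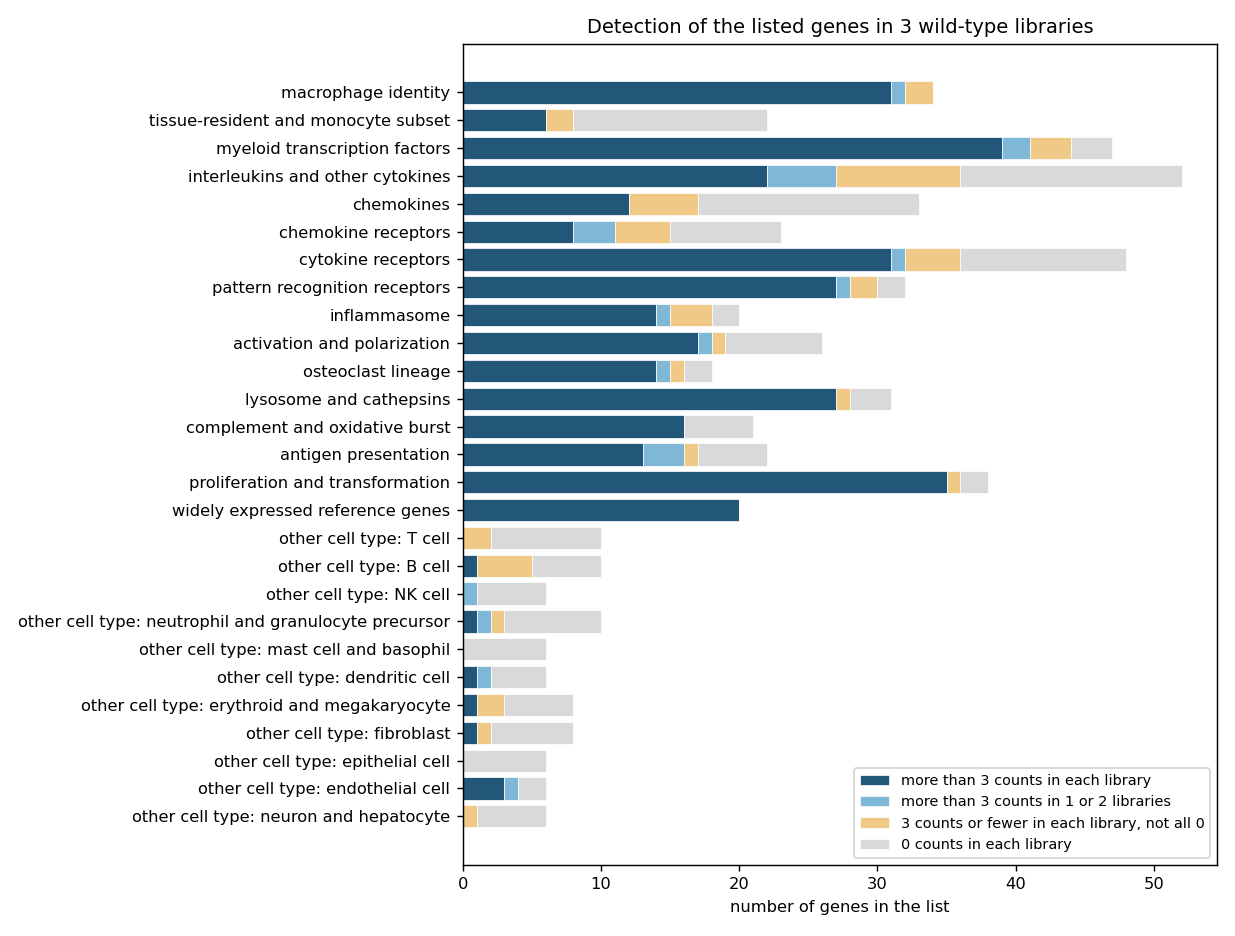
Number of genes in each list (horizontal axis) by detection in the 3 wild-type libraries, coloured by whether each library held more than 3 counts, 1 or 2 did, none did, or no library held a count. Macrophage identity, lysosome and proliferation genes were mostly detected, whereas 59 of the 82 markers of other cell types were at 0. The lists were chosen with earlier results of these data known.

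Lysosomal genes were detected in 27 of 31 cases (87.10%, against 51.16% of protein-coding genes) with a median of 178 TPM. Cathepsin messages alone took 0.671% ± 0.0155 of all counts. Below Lyz2 and Ctss stood Ctsb at 1686 ± 27.0 TPM, Gpnmb at 1571 ± 20.8 TPM, the aspartic protease Ctsd at 1219 ± 46.1 TPM and Ctsz at 1165 ± 26.3 TPM. The ranges of Ctsd and Ctsz overlapped, and 32.4% of the 50-base stretches of Ctsd are shared. Lyz1, the lysozyme of Paneth cells, had 112, 126 and 116 counts, and Lyz2 exceeded it 171-fold per length (SD 28.3). Ctsg and Ctsw, proteases of neutrophils and of cytotoxic lymphocytes, had no count, and Ctse had 2, 3 and 2 counts.

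Genes of the phagocyte NADPH oxidase complex were detected at high levels. The membrane subunits Cyba and Cybb had 446 ± 9.28 and 171 ± 6.07 TPM, and the cytosolic subunits Ncf1 and Ncf4 268 ± 7.23 and 141 ± 5.10 TPM. The GTPases Rac2 and Rac1 stood at 274 ± 6.33 and 146 ± 3.41 TPM, with 50.3% of the stretches of Rac1 shared. Complement genes were uneven. Cfp, which encodes properdin, had 4907, 4313 and 3904 counts and 466 ± 16.4 TPM, and the anaphylatoxin receptors C3ar1 and C5ar1 had 100 ± 1.21 and 41.7 ± 2.42 TPM. C1qa, C1qb and C1qc, the subunits of C1q that most tissue macrophages make, had no count in any library, while C3 had 28, 17 and 26 counts.

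Genes of antigen presentation were detected in 13 of 22 cases (59.09%, against 51.16% of protein-coding genes), at unequal levels. B2m, the invariant chain of class I, had 3882, 3305 and 3147 counts and 740 ± 7.71 TPM. The heavy chains H2-D1 and H2-K1, members of a family of similar genes, had 147 ± 6.18 and 60.7 ± 2.301 TPM, H2-M3, a class I gene that presents formylated peptides, 103.8 ± 5.27 TPM, and Tapbp, which loads class I, 68.6 ± 2.70 TPM. Of class II, H2-Aa, H2-Ab1, H2-Eb1 and H2-Eb2 had no count in any library, nor had Ciita, their transactivator. H2-DMa, a chain of the class II peptide exchange factor, was detected at 6.22 ± 0.587 TPM. The class I genes Tap1 and H2-T23 and the immunoproteasome subunit Psmb9 were as low, at 5.78 ± 0.403, 3.91 ± 1.02 and 2.88 ± 0.198 TPM. Cd74, the invariant chain that accompanies class II, had 1195, 986 and 984 counts and 116 ± 1.83 TPM.

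RAW264.7 cells can be driven into the osteoclast lineage by RANK ligand. Of its 18 listed genes, 14 were detected (77.78%, against 51.16% of protein-coding genes). Besides Spp1 and Tnfrsf11a these were Tcirg1, a subunit of the proton pump (157 ± 5.88 TPM), Ctsk, the collagenase of osteoclasts, with 1174, 950 and 914 counts and 124 ± 2.46 TPM, and Dcstamp, a fusion protein, at 50.05 ± 2.24 TPM. Nfatc1, the master factor of the lineage, had 33.3 ± 2.07 TPM. Clcn7 and Ostm1, a chloride transporter and its partner, had 36.2 ± 1.76 and 22.3 ± 1.72 TPM, and Atp6v0d2, a subunit of the proton pump, 10.3 ± 1.43 TPM. Several other members of the list were lower. Acp5, the tartrate-resistant phosphatase, had 58, 29 and 39 counts and 3.77 ± 0.937 TPM, Mmp9 had 120, 92 and 65 counts, Itgb3, the chain of the vitronectin receptor, had 14, 11 and 4 counts, and Calcr, the calcitonin receptor, had none. Tnfsf11, which encodes RANK ligand, also had no count.

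Proliferation genes were detected in 35 of 38 cases (92.11%, against 51.16% of protein-coding genes) with a median of 98.5 TPM. Ccnd1, the G1 cyclin that CSF-1 induces in macrophages, had 21246, 17533 and 16385 counts and 721 ± 17.2 TPM, with 21.6% of its 50-base stretches shared. Mycn, a MYC family member of embryonic and neural tissue, had 14709, 11856 and 11966 counts and 720 ± 16.2 TPM, and the ranges of both genes overlapped. Myc itself had 60, 39 and 39 counts and 3.10 ± 0.435 TPM, so that Mycn exceeded it 235-fold per length (SD 28.7). The anti-apoptotic Mcl1 and the ribonucleotide reductase Rrm2 had 613 ± 15.1 and 553 ± 12.9 TPM. Mki67, which is transcribed in cycling cells, had 28767, 25471 and 23289 counts and 475 ± 16.0 TPM.

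The tumour suppressors Cdkn2a and Cdkn2b, neighbouring genes that inhibit CDK4 and CDK6, had no count in any library, whereas the related Cdkn2c had 33.2 ± 0.580 TPM, Cdkn1a 105.4 ± 1.18 TPM and Trp53 123 ± 3.51 TPM. Abl1, the cellular homologue of the kinase of the transforming virus, had 21.1 ± 0.382 TPM and its paralog Abl2 72.2 ± 1.06 TPM. The gene table holds mouse genes only, without entries for viral genes. Reads of the viral kinase that match Abl1 would be counted there, so cellular and viral reads cannot be told apart in its level. Of 8 sex chromosome genes, Ddx3y, Eif2s3y, Kdm5d and Uty of the Y chromosome were detected, with 67.7 ± 3.96, 67.5 ± 3.58, 13.8 ± 0.466 and 12.1 ± 1.13 TPM. Xist, the RNA of the inactive X chromosome, had 2, 0 and 0 counts. Sry, Usp9y and Zfy1 of the Y chromosome had no count.

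Markers of other cell types were at or near 0. Of 82 markers in 11 lists, 70 were at or under the floor, 59 of them with no count, and 8 were detected. Of all protein-coding genes, 36.96% had no count and 51.16% were detected. All listed markers of mast cells and basophils and of epithelial cells had no count, and those of T cells summed to 3, 0 and 0 counts over 10 genes. The summed counts in WT replicates 1, 2 and 3 were 29, 15 and 23 for the B cell list, 26, 21 and 19 for neutrophils and their precursors, 26, 18 and 24 for dendritic cells, 33, 22 and 28 for fibroblasts and 17, 16 and 19 for erythroid cells and megakaryocytes. The endothelial list was the highest by summed counts, which are not corrected for length, with 199, 138 and 143 counts, most of them from Vwf.

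The 8 detected markers were Ighm, S100a8, Zbtb46, Itga2b, Pdgfrb, Pecam1, Vwf and Kdr. The highest by counts was Vwf, the clotting factor carrier of endothelium, with 118, 92 and 85 counts and 1.13 ± 0.0651 TPM, while Tek and Emcn of the same list had no count and Cdh5 had 5, 3 and 6. S100a8, a calcium-binding protein of neutrophils, had 24, 20 and 14 counts and 5.10 ± 0.899 TPM, the highest of the 8 per length, while its partner S100a9 had no count. Ighm, the immunoglobulin μ chain, had 22, 13 and 22 counts, against 3, 0 and 0 for Cd79a and none for Ms4a1.

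The 3 libraries were close to each other. Over the 8901 genes that averaged 10 CPM or more, the median coefficient of variation of CPM was 3.62%. The coefficient of variation that counting noise has at these depths was 3.27% on median, and a value estimated from 3 libraries tends to lie below the true one. The variance was on median 1.38 times and on average 4.95 times the counting variance. For counting noise alone the median of this ratio over 3 libraries lies below its average, so the medians understate the excess. The common biological coefficient of variation estimated by edgeR was 3.44%. Pearson's r of log2(CPM + 0.5) was 0.99704, 0.99739 and 0.99698 for the 3 pairs of libraries across these genes, which are not independent replicates. Between 3 and 9 of the 8901 genes differed by more than 1.5-fold within a pair. The excess over counting noise grew with the level. The variance was on median 1.15 times the counting variance at 10 to 100 CPM, 2.28 times at 100 to 1000 CPM and 19.9 times for the 75 genes at 1000 CPM or more, where the median coefficient of variation was 2.68%.

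Only 12 genes (0.13%) had a coefficient of variation above 20%, and 1 of them was protein-coding. The largest values belonged to Mir6236 (78.9%, with 27.9, 6.27 and 51.2 CPM), Gm15564 (75.6%, with 48.9, 7.28 and 69.3 CPM), Gm24270 (65.7%) and Lars2 (55.9%). Lars2, the mitochondrial leucyl-tRNA synthetase and the protein-coding gene of this group, had 3757, 1252 and 4437 counts. The ribosomal RNA gene CT010467.1 had 122880, 51032 and 109963 counts (38.2%), and the mitochondrial ribosomal RNAs mt-Rnr2 and mt-Rnr1 had 4674, 5898 and 9618 and 2626, 1323 and 2870 counts. All of these genes but mt-Rnr2 were lowest in WT replicate 2. The library kit removes ribosomal RNA, and the part that unequal removal has in these values was not tested.

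The remaining genes among the 10 most variable were Rpph1, the RNA of ribonuclease P, with 6172, 3383 and 3587 counts, the snRNA gene Gm25939 and the mitochondrial pseudogene Gm28438, of whose 50-base stretches 98.99% are shared. The share of lincRNAs was 1.06%, 1.14% and 1.26% in WT replicates 1, 2 and 3, and the share of all records tallied as no gene was 22.2%, 22.6% and 24.3%. Both were highest in WT replicate 3, and Malat1, Neat1 and Kcnq1ot1 together took 0.881%, 0.963% and 1.09% of counts. At the other end stood Mrps9, a mitochondrial ribosomal protein, with 1022, 884 and 847 counts or 52.3, 52.3 and 52.4 CPM, and Riok3, Adcy7, Snx27, Vps13d, Ppp2r2a, Lsm14b, Tcf12, Ptpn2 and Bri3bp, with coefficients of variation of 0.0656% to 0.164%. The smallest of 8901 such values lie below counting noise and do not set these genes apart.

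**Figure D5:**
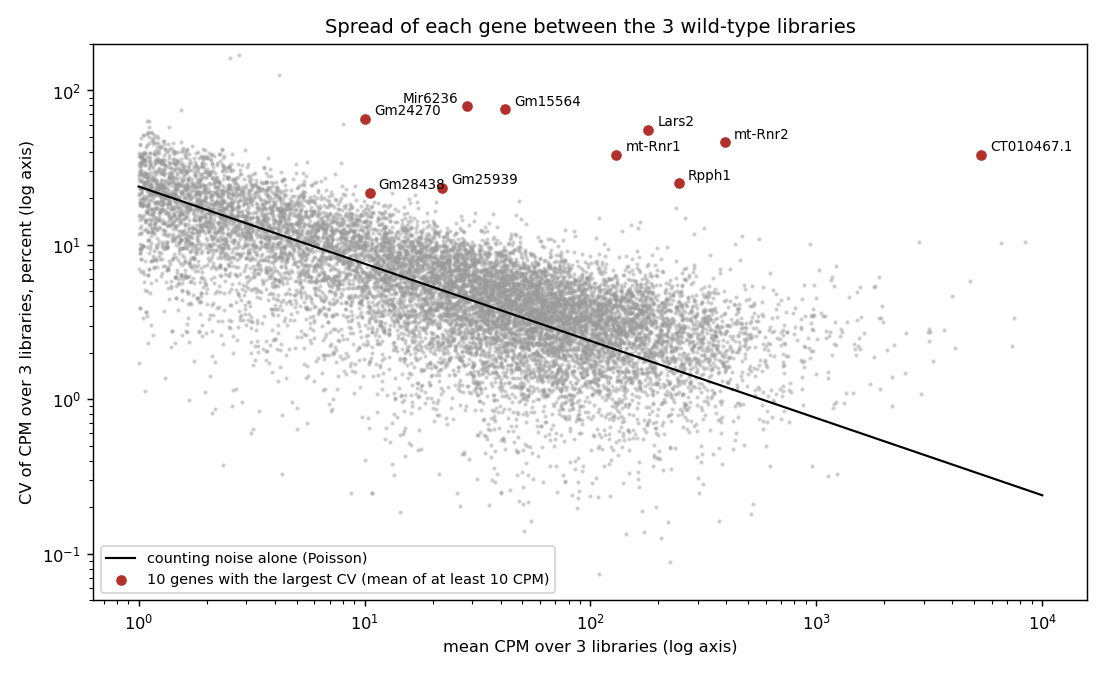
Coefficient of variation of CPM over the 3 wild-type libraries against mean CPM for each gene of at least 1 CPM, both on log axes, with the line that counting noise alone gives. The 10 most variable genes of at least 10 CPM are marked, from 78.9% for Mir6236 to 21.8% for Gm28438.

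The counting of multiply aligned reads limits some levels, and with them the ranks by abundance and the shares of gene classes. Between 13.3% and 13.6% of records aligned to several places and were tallied apart from the gene counts. Of the 13 messages of the mitochondrial genome, mt-Cytb, mt-Nd1 and mt-Nd6, of which no 50-base stretch occurs in another gene, had 11352 ± 729, 9680 ± 1139 and 1496 ± 272 TPM. In contrast mt-Co2, mt-Co3 and mt-Atp6, of which 99.5% to 100% of stretches are shared, had 10.4 ± 2.60, 15.2 ± 2.34 and 9.82 ± 2.93 TPM. The short mt-Atp8, with no shared stretch, had only 2, 2 and 1 counts. Gapdh, the glycolytic enzyme used as a reference gene in many assays, had only 1452, 1184 and 1180 counts and 56.9 ± 0.891 TPM with 25.1% of its stretches shared, while the glycolytic Pkm and Ldha had 2120 ± 11.4 and 2016 ± 50.2 TPM, with 25.8% of stretches shared for Pkm. A high share did not always go with a low level, since mt-Co1 (51.1% shared), Ftl1 (58.4%) and the elongation factor Eef1a1 (40.4%, 2577 ± 88.3 TPM) were abundant. Copies outside the annotated transcripts were not counted in these shares. Reads of such genes that aligned equally well elsewhere are not part of these levels.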

How the data were processed

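RNA of 3 unstimulated wild-type RAW264.7 samples was analysed. Per the labels, the authors trimmed reads with Trimmomatic 0.36, aligned them with HISAT2 2.3.4.3 and counted them with HTSeq, on GRCm38, Ensembl genes. The study's methods give other versions of the trimmer and aligner. The deposited files hold whole-number counts per gene with no normalization or filter. Mode and strand of the counting are not given in the sources used here, so overlapping and antisense genes are uncertain. Gene counts were 48.0% to 50.3% of records, and the tally lines (no gene, ambiguous, not aligned, not unique) were left out. Samples were grouped by genotype label, and no test was made because there is a single group.

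Libraries were scaled by TMM in edgeR 4.0.16 (R 4.3.3). The measures of spread, not the scaling factors, were tested on simulated counts of known spread. TPM used exon lengths of GENCODE M21, which lacks 260 identifiers. Stretches of 50 bases shared between genes were counted on GENCODE transcripts of either strand. A spread is the SD over 3 libraries. The 30 gene lists (607 entries, 585 genes, all matched) and the members were chosen with earlier results of these data known. Named are the 4 markers, the 15 most abundant genes on each scale, in each list the 4 members highest by TPM and up to 6 at or under the floor, any member whose role is explained, and the 10 most and least variable genes. Alternatives were other floors, scalings (library size alone, size factors of DESeq2 1.42.0), filters and lengths, and leaving out each library. Some listed genes are not reported here.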

Additional observations from a re-analysis of the deposited data

How the results depend on the processing

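With all 3 libraries 15213 genes were detected, 12388 reached 1 CPM and 354 list members were detected. Leaving out each library in turn gave 15423 to 15644, 12511 to 12538 and 356 to 357, and the order of the 4 markers did not change. Since detection requires every library, the numbers detected can only stay or rise when a library is left out. The median coefficient of variation was 2.75% to 3.10% with 2 libraries and the biological one 3.24% to 3.60%. A filter of at least 1 count gave a median of 15.2% and one of 10 counts in every library 5.10%. Among protein-coding genes only, the 10 and 100 most abundant genes took 4.63% and 17.4% of counts. TPM depended on the length used. With the longest transcript Spp1, Lyz2, Cd68 and Csf1r had 12630, 2341, 1572 and 218 TPM, with the mean transcript length 10342, 1352, 1176 and 290 TPM, and with only protein-coding genes in the total 18276, 3704, 2435 and 281 TPM. Of 10 ratios of TPM recomputed with other lengths after the data were seen, 5 moved by over 1.5 times, all with the mean transcript length. Spp1 over Actb turned, at 0.811, and Spp1 over Lyz2, Spp1 over Csf1r, Cebpb over Cebpd and Cd14 over Tlr4 were 7.66, 35.7, 11.7 and 18.6. None of the other recomputed ratios turned. Counts, shares, levels and measures of spread have no direction that could turn. A floor of 0 or 10 counts gave 18245 or 13237 detected genes. Of single lists, 4 of other cell types moved by over 1.5 times, from 1 to 2 members at a floor of 0. Library size alone and DESeq2 size factors changed no count at 1 CPM. No paired analysis was possible because there is 1 group and no test. Depth limits what a 0 means to 0.154 to 0.186 CPM per library, and 3 libraries limit the precision of each SD.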
